A study of Homo sapiens with 6 samples.

Results

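The CDK inhibitor genes of the CDKN1 and CDKN2 families were described in HCT116 cells, a human colorectal carcinoma line, by the RNA levels of CDKN1A, CDKN1B, CDKN1C, CDKN2A, CDKN2B, CDKN2C and CDKN2D. The 7 genes were taken by symbol from a table of 59251 gene symbols. All 7 were present, and all 7 were among the 14808 genes that passed the filter on low counts. The family was chosen by the measured MUT and WT levels of these libraries, in which CDKN1A differed, so the values of the 7 genes are given as a description and support no test.

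Total RNA was sequenced from cells whose eIF6 carried the N106S substitution on both alleles (MUT, 3 libraries) and from wild-type cells (WT, 3 libraries). eIF6 is a ribosome anti-association factor of the large subunit, and the study's question is how its targeting affects ribosomal subunits, exit from mitosis and tumour progression. MUT cells were CRISPR/Cas9-edited clones, and both groups shared the line and its serum-containing medium. The labels do not say how many clones were used or whether the replicates were separate cultures, so all p-values measure the spread between these libraries, which may be technical.

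Cyclin-dependent kinase (CDK) inhibitors are small proteins that hold back the kinases of the cell cycle. The Cip/Kip proteins p21 (CDKN1A), p27 (CDKN1B) and p57 (CDKN1C) bind cyclin and kinase together and act on several CDKs. The INK4 proteins p16 (CDKN2A), p15 (CDKN2B), p18 (CDKN2C) and p19 (CDKN2D) bind CDK4 and CDK6 and keep them from D-type cyclins. CDKN2A also encodes ARF, which restrains the ligase MDM2, through a separate first exon. CDKN1A is induced in many forms of cell stress and holds cells in the cycle's gap phases. The deposited table has 1 row for CDKN2A, so p16 and ARF transcripts are not told apart here.

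The sequences upstream of CDKN1A and of the distal start of CDKN2A are shown because these genes were the most abundant members and, under TMM scaling though not by library size alone, differed in opposite senses between the groups. They come from the RefSeq promoter table (GRCh38.p14), which held 6 of the 7 genes, run 5′ to 3′ on the gene's strand and lie within the 250 bases before an annotated start. They end before the first GENCODE 29 transcript start inside that window. Capitals mark GC boxes, the letters GGGCGG on either strand, which are the classical binding motif of Sp1-family factors.
CDKN1A, chr6:36678464-36678657, plus strand: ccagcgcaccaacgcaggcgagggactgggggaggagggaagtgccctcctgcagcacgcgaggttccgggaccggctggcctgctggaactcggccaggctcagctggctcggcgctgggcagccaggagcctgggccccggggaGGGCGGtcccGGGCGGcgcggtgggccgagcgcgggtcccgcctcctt
CDKN2A, distal start, chr9:21995325-21995574, minus strand: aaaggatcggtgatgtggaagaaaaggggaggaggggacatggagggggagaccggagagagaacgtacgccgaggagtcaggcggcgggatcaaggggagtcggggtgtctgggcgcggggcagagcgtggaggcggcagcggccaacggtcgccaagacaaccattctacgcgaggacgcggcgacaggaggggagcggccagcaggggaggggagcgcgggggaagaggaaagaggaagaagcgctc

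The full CDKN1A window of 250 bases held 4 GC boxes, of which 2 are in the part shown and the last 2 share a base. The distal CDKN2A window held 0, and the CDKN2A window nearer the 3′ end of the gene held 1. Of all 35116 such windows in the RefSeq table, 42.6% held at least 1 on either strand. In GENCODE 29 the CDKN1A window lies in an intron of the 3 transcripts that begin further upstream. The letters TATAAA were in none of these 3 windows on either strand, against 10.7% of all windows that held them. These matches describe the letters only. Since p16 and ARF transcripts are not told apart, the measured CDKN2A level cannot be tied to the distal start.

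The MUT libraries held 80146608, 58935201 and 53986494 counts and the WT libraries 87656970, 69342679 and 63951768. RNA of the 7SL, 7SK, RPPH1 and RMRP genes took 80.9%, 62.7% and 79.5% of the counts in MUT and 81.1%, 74.3% and 84.0% in WT. Ribosomal RNA took 3.91% of MUT replicate 2 and 1.16% of WT replicate 1, and at most 0.234% of the other 4. Of 9 colon epithelial markers, KRT8, KRT18 and KRT19 were the most abundant, while VIL1, CDX1 and CDH1 were at most 0.03 TPM (transcript abundance per length within a library) in any library. Their summed TPM was 87.8 to 164.3 in MUT and 55.9 to 96.8 in WT. Of 10 markers of other cell types, PTPRC and CD3E had 0 counts throughout, and the summed TPM was 0.46 to 1.02 in MUT and 0.23 to 0.42 in WT, mostly CD68 and ACTA2.

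MUT cells had more CDKN1A mRNA than WT cells, by 2.51-fold under TMM scaling (log2 fold change 1.33). By library size alone its log2 fold change was 1.86. CDKN1C, CDKN2A and CDKN2D mRNA had lower values in MUT under TMM scaling, with log2 fold changes of -0.33, -0.32 and -0.41. By library size alone the values of these genes were above 0. CDKN1B, CDKN2B and CDKN2C had overlapping groups. Levels across libraries are CPM, counts scaled to library size, after TMM scaling, which sets the bulk of genes equal between libraries. In bulk RNA, fewer cells expressing a gene and less RNA per cell cannot be told apart. Of the 7 genes, CDKN1A alone was called, with an adjusted p below 0.05 when edgeR's quasi-likelihood model was fitted to all genes, where 1.91% of tested genes were called. In 4 of the 7 the MUT and WT values did not overlap, which held for 26.1% of all tested genes. CDKN1A was the 1 higher in MUT, as were 12.8% of tested genes, and the other 3 were lower, as were 13.4%. Both counts belong to the contrast for which the family was chosen, and nothing is read from them.

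CDKN1A (gene ID 1026, chromosome 6, 36676463 to 36687332) was measured at 59.1, 57.8 and 65.0 CPM in MUT, against 24.5, 25.3 and 22.7 CPM in WT. All 3 MUT libraries lay above all 3 WT libraries, with a wide gap between the groups. The means were 60.6 ± 3.85 CPM in MUT and 24.2 ± 1.33 CPM in WT (SD, n = 3 each), and the log2 fold change was 1.33 (SE 0.12). It ranked 150 from the highest log2 fold change among the 14808 tested genes. The value ran from 1.27 to 1.39 when any 1 library was left out. It rested on 3880 to 5629 counts per MUT library and 981 to 1893 per WT library.

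CDKN1B, whose protein p27 restrains CDK2 in resting cells, was measured at 2.72, 2.09 and 2.56 CPM in MUT, against 3.45, 3.41 and 2.13 CPM in WT. The groups overlapped, because WT replicate 3 lay far below the other WT libraries and beside the lowest MUT library. The log2 fold change was -0.30 (SE 0.20). It ran from -0.47 without WT replicate 3 to -0.16 without WT replicate 2, and was -0.07 in the 4 libraries low in ribosomal RNA. CDKN1C, an imprinted gene whose protein p57 limits growth in development, was measured at 1.73, 1.61 and 1.64 CPM in MUT, against 2.16, 1.96 and 2.13 CPM in WT. Here the groups did not overlap, and the log2 fold change was -0.33 (SE 0.15). These 2 genes rested on only 92 to 255 counts per library.

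CDKN2A was measured at 23.9, 23.2 and 24.4 CPM in MUT, against 28.6, 31.4 and 29.2 CPM in WT. Its groups did not overlap either, and its libraries lay closest together of the 7 genes in MUT. The means were 23.9 ± 0.57 CPM in MUT and 29.7 ± 1.49 CPM in WT (SD, n = 3 each), with a log2 fold change of -0.32 (SE 0.11).

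CDKN2D, whose protein p19 is an INK4 inhibitor of CDK4 and CDK6, was measured at 3.24, 2.62 and 3.08 CPM in MUT, against 3.88, 3.51 and 4.51 CPM in WT. All MUT values lay below all WT values, and the log2 fold change was -0.41 (SE 0.14). CDKN2C, which encodes the INK4 protein p18, was measured at 2.40, 2.25 and 2.83 CPM in MUT, against 1.97, 2.62 and 2.29 CPM in WT. The groups overlapped, with a log2 fold change of 0.12 (SE 0.16), which ran from 0.02 to 0.26 when any 1 library was left out. CDKN2B was nearly absent, with 17, 22 and 19 counts in MUT, against 19, 9 and 5 counts in WT. It reached the filter's level of 0.15 CPM in 3 MUT libraries and 1 WT library, so its log2 fold change of 0.55 (SE 0.47) is of a gene that passed mainly through MUT. The value was 1.11 without WT replicate 1 and 1.199 in the 4 libraries low in ribosomal RNA.

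**Figure D1:**
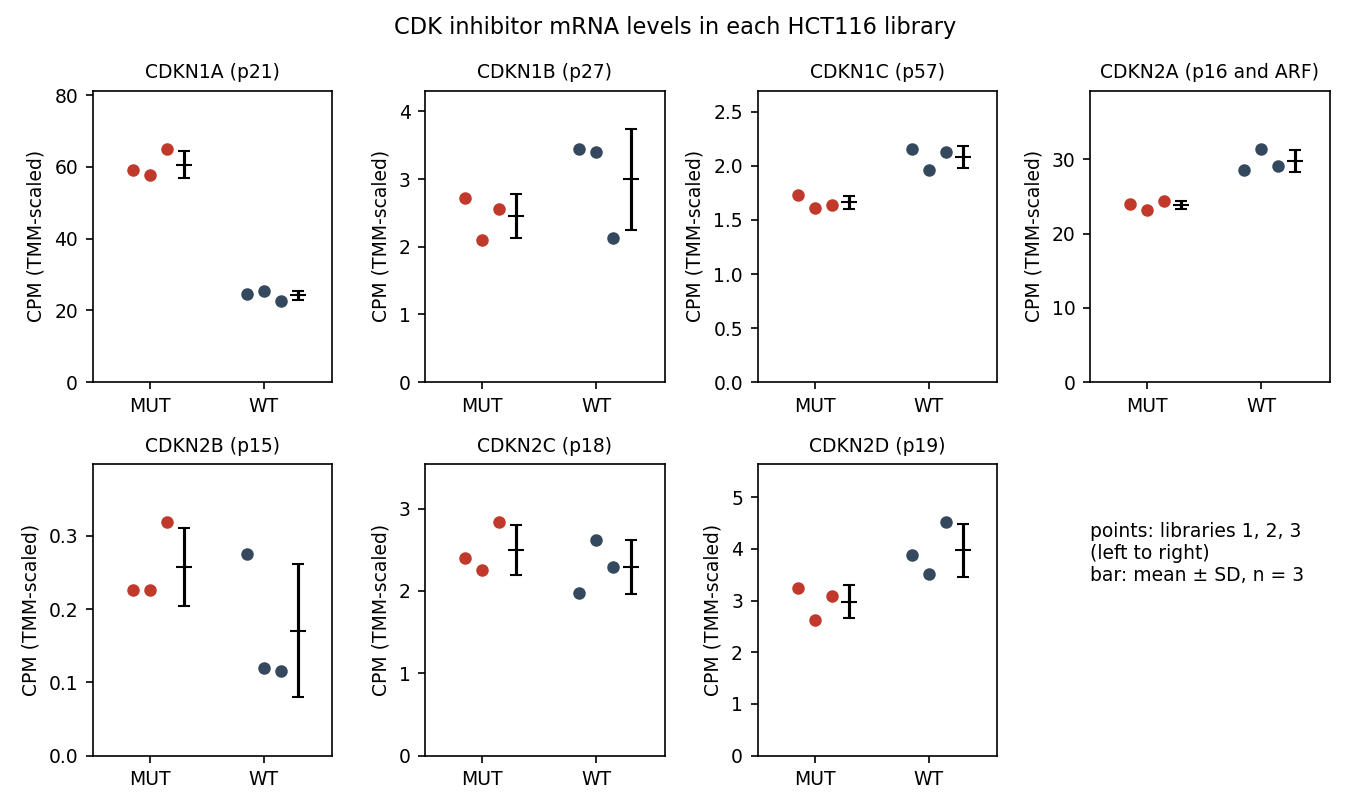
CPM (TMM-scaled, linear axes from 0) of the 7 CDK inhibitor genes in the 3 MUT and 3 WT libraries, each point a library and each bar the mean ± SD. CDKN1A lies between 57.8 and 65.0 CPM in MUT and between 22.7 and 25.3 CPM in WT, and CDKN2A between 23.2 and 24.4 CPM in MUT and between 28.6 and 31.4 CPM in WT.

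The signs of the small differences rested on the scaling. By library size alone the median log2 fold change of all genes was 0.54, against -0.01 under TMM. CDKN1B, CDKN1C, CDKN2A and CDKN2D then had values of 0.18, 0.22, 0.21 and 0.13, all above 0 and all below that median. On the log2(FPKM + 1) scale they were 0.12, 0.09, 0.23 and 0.02, with a median of all genes of 0.33. CDKN1A lay at 1.86 by library size alone and 1.79 on the log2(FPKM + 1) scale, above the median of all genes in each. On that FPKM scale, as deposited per length and depth, it no longer passed the adjusted p of 0.05 in limma's test. Across the 18 alternatives its value less the median of all genes stayed between 1.28 and 1.46.

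**Figure D2:**
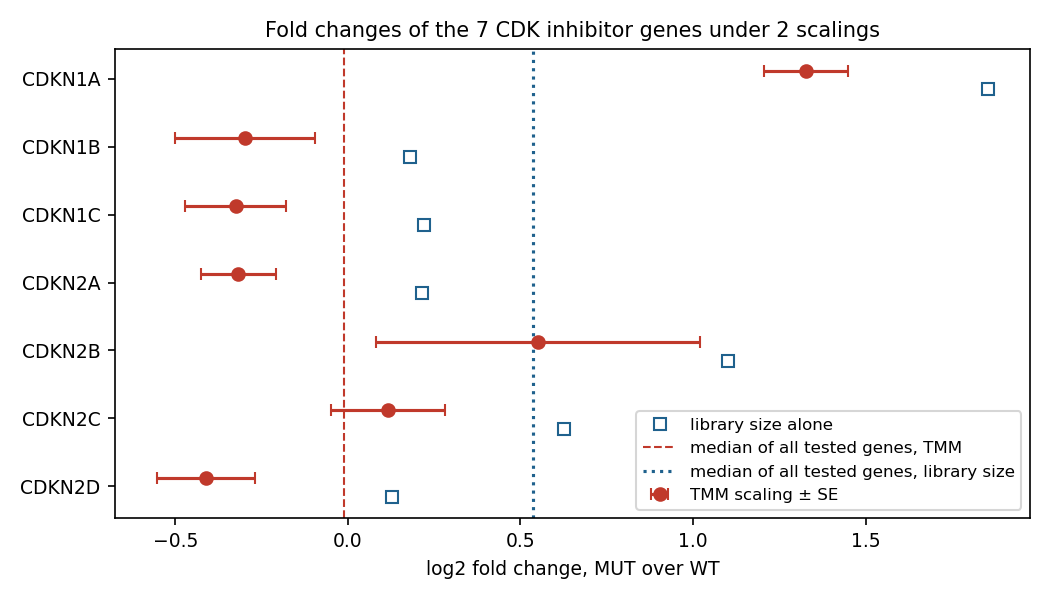
Log2 fold change, MUT over WT (x axis), of the 7 CDK inhibitor genes under TMM scaling (filled circles, bars are the SE) and by library size alone (open squares), with the median of all tested genes under each scaling as a vertical line. CDKN1A is at 1.33 and 1.86, far to the right of both medians, while CDKN1B, CDKN1C, CDKN2A and CDKN2D lie left of the median in each scaling.

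Levels of different genes were compared per length, as TPM within a library, where no scaling between libraries enters. CDKN1A was the most abundant of the 7 genes in every MUT library, at 10.2, 21.3 and 13.2 TPM beside 6.71, 13.5 and 8.06 TPM of CDKN2A. The order was the other way round in every WT library, with CDKN1A at 3.36, 5.21 and 2.78 TPM beside 6.40, 10.3 and 5.52 TPM of CDKN2A. The ratio of CDKN1A to CDKN2A TPM was thus 1.52, 1.58 and 1.63 in MUT, against 0.525, 0.505 and 0.504 in WT. Within a group this ratio varied little, although TPM of MUT replicate 2 were the highest for both genes. In that library 7SL, 7SK, RPPH1 and RMRP RNA took 86.5% of all TPM, against 92.3% to 93.1% in the other MUT libraries and 90.1% to 93.8% in WT. The part of these RNAs in the TPM levels was not tested.

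CDKN1A made up 54.8% to 56.8% of the summed TPM of the 7 genes in MUT, against 28.7% to 29.7% in WT. CDKN2A made up 34.7% to 36.1% in MUT, against 56.5% to 57.8% in WT. The other 5 genes together held 7.38% to 9.05% in MUT and 12.9% to 14.3% in WT. The Cip/Kip genes therefore held 58.9% ± 0.91 of the family's TPM in MUT and 33.9% ± 1.07 in WT (SD, n = 3 each). Such shares are parts of a fixed whole, so a larger share of CDKN1A leaves smaller shares for the others. The TPM of CDKN2A itself was 9.41 ± 3.57 in MUT and 7.41 ± 2.56 in WT (SD, n = 3 each). Among all tested genes, CDKN1A had a higher TPM than 95.9% to 96.5% in MUT and than 92.6% to 92.7% in WT, and CDKN2A than 94.5% to 95.0% in MUT and than 95.0% to 95.1% in WT.

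CDKN2D ranked next in all 6 libraries, at 0.73 to 1.11 TPM in MUT and 0.73 to 0.98 TPM in WT. CDKN2C, CDKN1B and CDKN1C followed between 0.16 and 0.61 TPM, changed places between libraries and overlapped in level. CDKN2B came last, at no more than 0.03 TPM. The spread between replicates was smallest for CDKN2A and CDKN1C and largest for CDKN2B. As a coefficient of variation of CPM it was 2.40% in MUT and 5.02% in WT for CDKN2A, and 20.7% in MUT and 53.3% in WT for CDKN2B.

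**Figure D3:**
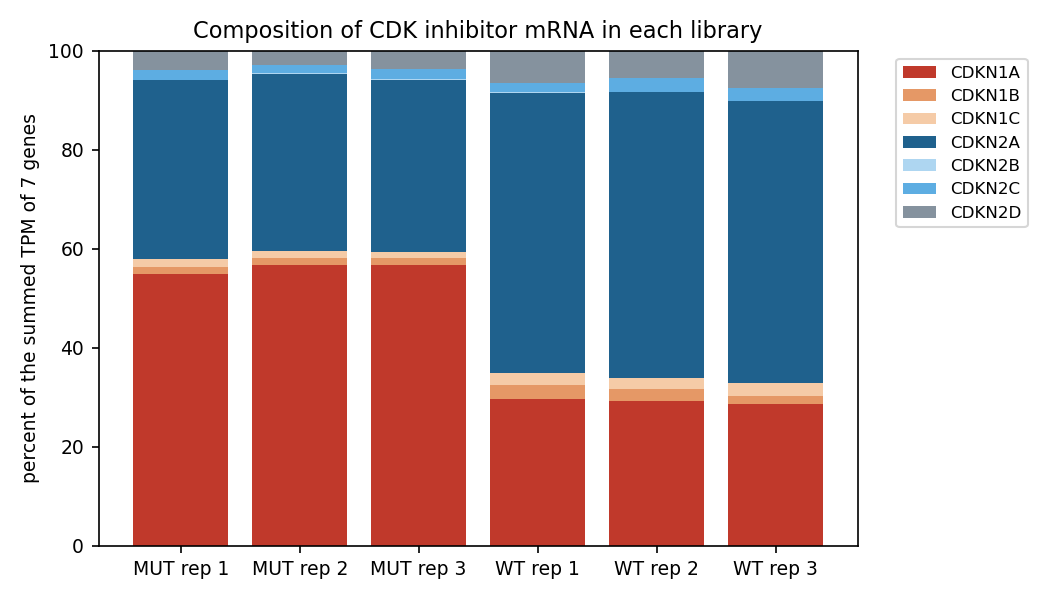
Share of each gene (percent, y axis) in the summed TPM of the 7 CDK inhibitor genes, by library. CDKN1A takes 54.8% to 56.8% of the bar in the MUT libraries and 28.7% to 29.7% in the WT libraries, and CDKN2A 34.7% to 36.1% in MUT and 56.5% to 57.8% in WT.

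The genes most like CDKN1A across libraries were sought among 4534 other genes (mean log2 CPM no lower than 2) by Pearson's r of log2 CPM over the 6 libraries. The 5 protein-coding genes with the highest r were the peroxisomal import gene PEX14 (0.998), the nucleolar gene GRWD1 (0.996), the Golgi calcium-binding gene SDF4 (0.994), the cytokine gene TNFSF12 (0.992) and the Golgi SNARE gene BET1L (0.992). Since MUT and WT libraries lay apart in CDKN1A, r mainly ranks genes by how cleanly they separate the groups. PEX14 was measured at 8.04 to 8.93 CPM in MUT and 4.30 to 4.61 CPM in WT, with a log2 fold change of 0.93 (SE 0.10). The log2 fold changes of the other 4 ran from 0.57 to 1.01, all below that of CDKN1A. Within the family, r with CDKN1A was -0.96 for CDKN1C, -0.94 for CDKN2A and -0.84 for CDKN2D, and 0.65 for CDKN2B, 0.43 for CDKN2C and -0.38 for CDKN1B.

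Genes around the members were set beside them. Within 500 kb of a member lay 77 other tested genes, 42 with values above 0 and 35 below. MTAP was the called gene among them in edgeR's test, where 9 had an unadjusted p below 0.05 and DESeq2 called 2. Over all tested genes edgeR called 1.91%, 19.6% had an unadjusted p below 0.05 and DESeq2 called 5.16%, so these counts of 77 were no larger than all genes give. MTAP encodes the methylthioadenosine phosphorylase of methionine salvage and lies 26637 bases from CDKN2A on chromosome 9 (21802636 to 21941115). It fell to 11.9, 11.95 and 14.6 CPM in MUT, against 20.4, 21.3 and 21.1 CPM in WT (log2 fold change -0.71, SE 0.12, edgeR adjusted p = 0.0282; 0.000202 to 0.778 over 18 alternatives). All MUT values of MTAP lay below all WT values. CDKN2B-AS1, the antisense RNA that overlaps CDKN2A and CDKN2B, was at 27, 41 and 27 counts in MUT, against 23, 29 and 11 counts in WT (0.32, SE 0.32). The sources used here do not state whether counting used strand, so reads of overlapping antisense genes may not be told apart.

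Around CDKN1A, 12 tested genes within 500 kb had values from -0.43 to 0.97, and edgeR called 0 of them, with 0 at an unadjusted p below 0.05 and 0 called by DESeq2. The nearest was the splicing factor gene SRSF3 (-0.13, SE 0.12). DINOL, a long noncoding RNA that overlaps the CDKN1A locus, had 1, 7 and 5 counts in MUT, against 1, 0 and 2 counts in WT, and PANDAR, upstream of CDKN1A, had 0 counts in all 6. Within 100 kb of CDKN1B lay GPR19, LOC105369663, APOLD1, CREBL2 and DDX47, of CDKN1C KCNQ1, PHLDA2 and NAP1L4, and of CDKN2C FAF1. Beside CDKN2D lay KRI1, AP1M2, ATG4D, SLC44A2, S1PR5, KEAP1 and PDE4A. None of these was called in edgeR's test. Around CDKN1B the values were 0.25 (SE 0.34) for GPR19, 0.13 (SE 0.49) for LOC105369663, -1.52 (SE 0.42) for APOLD1, 0.37 (SE 0.22) for CREBL2 and 0.48 (SE 0.16) for DDX47, of which APOLD1 was at most 0.391 CPM in any library. Of the 16 tested genes within 500 kb of CDKN1B, 3 had an unadjusted p below 0.05 and DESeq2 called 1. Over all tested genes these shares were 19.6% and 5.16%.

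The other genes of the pathway were listed by role, 130 in all, of which 129 were tested. In edgeR's test over all genes 1 of them rose and 1 fell, where 0.986% of all tested genes rose and 0.925% fell. An unadjusted p below 0.05 was found for 32, against 19.6% of all tested genes. Of the 129, 50 had values above 0 and 79 below, with a median of -0.08, against 7207 above and 7601 below, with a median of -0.01, over all tested genes. With the 3 tested genes listed for their position, MTAP among them, 132 genes were tested and DESeq2 called 6, against 5.16% of all tested genes.

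Among the 15 tested CDKs, cyclins and PCNA, which bind the inhibitors, cyclin D1 (CCND1), the partner of CDK4 and CDK6, rose and 0 fell. CCND1 was measured at 47.8, 42.0 and 53.04 CPM in MUT, against 31.1, 25.8 and 24.2 CPM in WT, with no overlap (log2 fold change 0.82, SE 0.15, edgeR adjusted p = 0.0303; 1.14e-05 to 0.384 over 18 alternatives). CDK4 was at -0.18 (SE 0.14) and the sliding clamp PCNA, which p21 also binds, at -0.25 (SE 0.15). None of the 12 tested kinases, phosphatases and other proteins that set CDK activity was called by edgeR or DESeq2, with 5 at an unadjusted p below 0.05, a share that was 19.6% over all tested genes, and a median of -0.22. Their most abundant genes, CDK2AP1 and CDK2AP2, were at -0.27 (SE 0.12) and -0.30 (SE 0.12).

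Downstream of the kinases, 1 of the 20 tested pocket protein, E2F and DREAM genes fell. This was RBBP4, a histone-binding subunit of DREAM and of several chromatin complexes, at 9.39, 8.28 and 8.78 CPM in MUT, against 13.3, 12.9 and 13.6 CPM in WT (log2 fold change -0.59, SE 0.11, edgeR adjusted p = 0.0355; 0.00335 to 0.928 over 16 alternatives). The median of that list was 0.03, with TFDP1, the dimer partner of E2F factors, at 0.33 (SE 0.13) and the cell cycle transcription factor MYBL2 at 0.02 (SE 0.11). Of 15 E2F and DREAM target genes, 12 had values below 0 and 3 above (median -0.12). Over all 14808 tested genes the split was more even, with 7601 below and 7207 above. EdgeR called 0 of the 15, and 6 had an unadjusted p below 0.05, against 19.6% of all tested genes. DESeq2 called 1 of the 15, TK1, the cytosolic thymidine kinase, against 5.16% of all tested genes. TK1 was at -0.49 (SE 0.12, edgeR adjusted p = 0.0805) and TYMS, the thymidylate synthase, at -0.25 (SE 0.13).

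None of the 23 tested stress-response regulators and transcription factors acting on CDKN1A was called by edgeR. In that list 6 had an unadjusted p below 0.05, against 19.6% of all tested genes. DESeq2 called 1, the GC-box-binding factor SP1, against 5.16% of all tested genes. The list's values ran from -0.63 to 0.64 with a median of -0.12, and 6 lay above 0 and 17 below. The most abundant were MYC, a repressor of CDKN1A, at -0.30 (SE 0.17), and the deacetylase gene HDAC1 at -0.21 (SE 0.13). MDM2 and SP1 were picked out after their values were seen. MDM2 was 1 of the 6 above 0 and not the highest of them, and SP1 was the lowest of the 23. MDM2 was at 9.91, 11.2 and 11.6 CPM in MUT, against 8.60, 9.01 and 7.61 CPM in WT (0.37, SE 0.12, edgeR adjusted p = 0.136). SP1 was at -0.63 (SE 0.14, edgeR adjusted p = 0.0554). In both the groups did not overlap, though neither passed. SP1 passed under 4 of 15 alternatives: DESeq2 (adjusted p = 0.0197), no low-count filter (0.00934), at least 1 CPM in 3 libraries (0.0477) and the replicate block (0.0403), within a range up to 0.875.

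None of the 18 tested ubiquitin ligase and RNA-binding genes acting on p21 and p27 was called by edgeR or DESeq2, with a median of -0.07. Of these 4 had an unadjusted p below 0.05, against 19.6% of all tested genes. CKS1B, which works with SKP2 on p27, and CKS2 were at -0.06 (SE 0.13) and -0.47 (SE 0.17). None of the 7 regulators of CDKN1B and CDKN2C was called by either tool, with 0 at an unadjusted p below 0.05, and the kinases AKT1 and AKT2 were at 0.07 (SE 0.12) and 0.12 (SE 0.14). Of 19 regulators of the INK4 locus edgeR called 0, and 4 had an unadjusted p below 0.05, against 19.6% of all tested genes. The median was -0.04, with the Polycomb gene PCGF2 at -0.04 (SE 0.18) and ID1, an inhibitor of ETS-driven CDKN2A transcription, at -0.42 (SE 0.21). DESeq2 called 1 there, against 5.16% of all tested genes. This was ETS1, an activator of CDKN2A, picked out after its values were seen. It was at 0.534 to 0.599 CPM in MUT and 0.200 to 0.255 CPM in WT (1.33, SE 0.31, edgeR adjusted p = 0.0637). Its value rested on only 45, 52 and 33 counts in MUT, against 15, 15 and 11 counts in WT.

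The calls of CCND1, RBBP4 and MTAP changed with the scaling and with which library was left out. All 3 passed without MUT replicate 2, and 0 of the 132 genes passed when any 1 other library was left out, by library size alone, or on the TPM and FPKM scales. The log2 fold changes with any 1 library left out ran from 0.73 to 0.95 for CCND1, from -0.64 to -0.52 for RBBP4 and from -0.81 to -0.64 for MTAP. In the 4 libraries low in ribosomal RNA, CCND1 (1.03, edgeR adjusted p = 0.00302) and MTAP (-0.66, edgeR adjusted p = 0.0311) passed. RBBP4 did not pass there (-0.52, edgeR adjusted p = 0.0647). KLF6, a listed transcription factor acting on CDKN1A, also passed there (0.77, edgeR adjusted p = 0.0187). With all 6 libraries KLF6 was at 0.35 (SE 0.21, edgeR adjusted p = 0.398) and was not called.

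**Figure D4:**
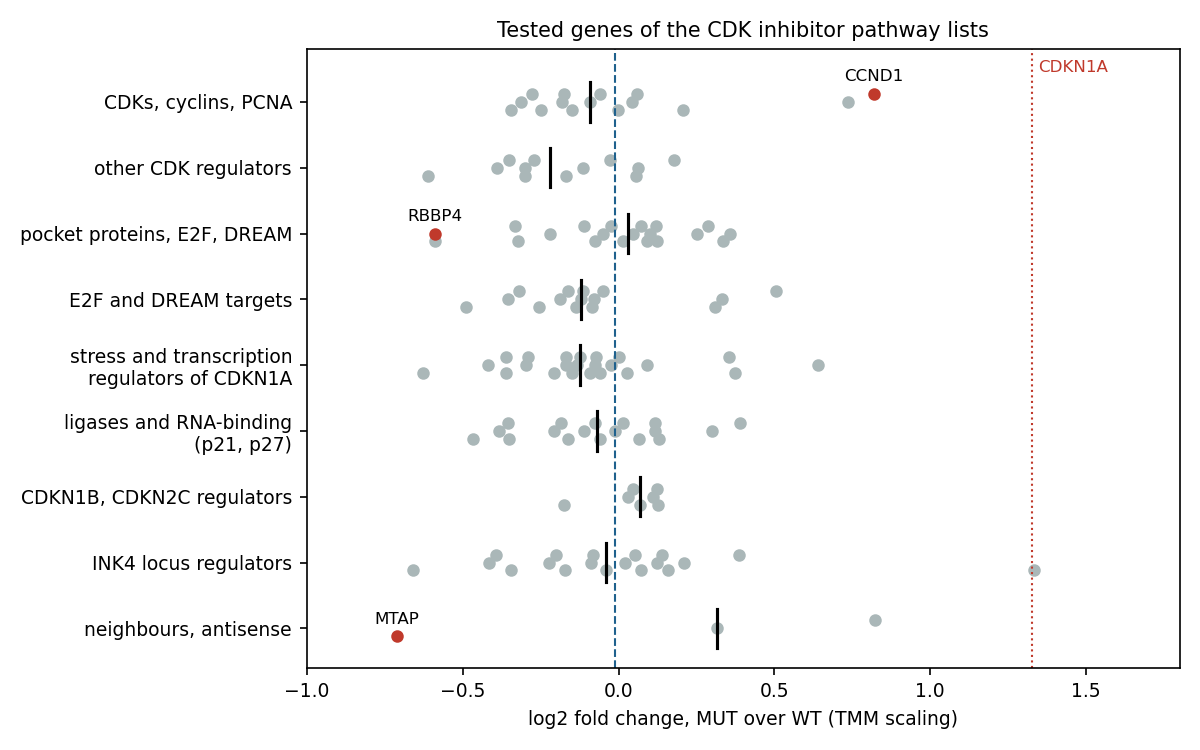
Log2 fold change, MUT over WT under TMM scaling (x axis), of the tested genes in each pathway list, with called genes in red and named, list medians as black bars, the median of all tested genes as a dashed line and CDKN1A as a dotted line. CCND1 at 0.82 rose, RBBP4 at -0.59 and MTAP at -0.71 fell, and the list medians lie between -0.22 and 0.32.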

How the data were processed

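The authors deposited expected counts, FPKM and TPM per gene symbol for 6 libraries. The submitters' processing notes name STAR 2.5.2b, RSEM 1.2.28, DESeq2 1.42.0 and FastQC 0.12.1 and the build hg38 (GRCh38), without roles. The annotation is not given in the sources used here. The expected counts were whole as deposited. An estimator such as RSEM divides reads between similar genes.

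The test ran in edgeR 4.0.16 (R 4.3.3): filterByExpr (minimum count 10, total 15), TMM scaling, glmQLFit and glmQLFTest with no covariate over all 6 libraries, and Benjamini-Hochberg adjustment over all tested genes with a threshold of 0.05. The SE of a log2 fold change is its size over the root of its F statistic. Alternatives used DESeq2 1.42.0 and limma 3.58.1. The deposited TPM and FPKM were normalised by the authors for depth and length. Libraries of a group differed by more than counting noise, and most in the pairs with MUT replicate 2. Pearson's r of log2 CPM was 0.940 and 0.943 between it and MUT replicates 1 and 3, against 0.976 between those. In WT the pairs ran from 0.958 to 0.971.

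Members and lists were chosen with earlier results of these data known. Named genes were the members, called list genes, the 2 most abundant others per list, the 5 genes most like CDKN1A, and tested genes within 100 kb of a member. MDM2, SP1, ETS1 and KLF6 were picked outside this rule. Some genes within the rule are not reported here. Coordinates and promoters come from RefSeq GRCh38.p14, where all 7 members had a gene entry and 6 a promoter.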

Additional observations from a re-analysis of the deposited data

How the results depend on the processing

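The log2 fold change of CDKN1A was above 0 under all 18 alternatives and moved by more than the replicate spread in 4: library size alone (1.86), log2(TPM + 1) (1.70), log2(TPM + 0.1) (1.93) and log2(FPKM + 1) (1.79). On the last 2 scales it did not pass the test. Without 1 library it ran from 1.27 to 1.39. Of all genes, 283 were called, 284 with DESeq2's size factors, 262 with limma-voom and 395 in the 4 libraries low in ribosomal RNA. The count was 108 by library size alone (87.96% of them higher in MUT, against 51.6%), 1195 with no low-count filter, 462 with at least 1 CPM in 3 libraries, 764 with DESeq2's Wald test, 21 on log2(TPM + 1) (71.4% higher), 10 on log2(TPM + 0.1) and 13 on log2(FPKM + 1). Without 1 library it ran from 27 (without WT replicate 2) to 442 (without MUT replicate 2), and was 40 when either MUT replicate 1 or MUT replicate 3 was dropped, 30 when WT replicate 1 was and 61 when WT replicate 3 was. Of the pathway genes 3 were called, 0 by library size alone and on the TPM and FPKM scales, 7 with no low-count filter, 6 with DESeq2's Wald test, and 0 to 3 without 1 library. The cause was not tested. Replicate numbers are not said to mark a shared culture, and deviations of same-numbered libraries correlated at -0.69, -0.35 and 0.41. With the replicate block 296 genes and 4 pathway genes were called, and CDKN1A was at 1.33. CDKN2B, with 5 to 22 counts per library, is limited by depth.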

Other observations

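The length of transcript that a library's count and FPKM imply together, the count divided by the FPKM and the total count, reflects which transcripts of a gene the estimator used, if the total count was the authors' denominator. For CDKN1A it was 1449, 1442 and 1467 bases in MUT and 1512, 1464 and 1418 bases in WT, with overlap. For CDKN1B it lay between 2335 and 2342 bases in MUT and between 2320 and 2342 bases in WT, and for CDKN2A between 891 and 919 bases in MUT and between 917 and 926 bases in WT. CDKN2C varied most among the 6 better-covered genes, at 1664, 1956 and 1720 bases in MUT and 1939, 1624 and 1580 bases in WT. GENCODE 29 lists 3 coding transcripts of this gene. Its high values were in MUT replicate 2 and WT replicate 1, the libraries with the most ribosomal RNA, and whether the 2 are connected was not tested. CDKN2D was at 1251 bases in MUT replicate 2, against 1103 and 1096 bases in the other MUT libraries and 1077 to 1088 bases in WT.

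The epithelial marker CLDN4, a tight junction protein, fell to 7.68, 5.85 and 7.32 CPM in MUT, against 14.4, 10.7 and 14.8 CPM in WT (log2 fold change -0.94, SE 0.16, edgeR adjusted p = 0.0284; 1.35e-05 to 0.732 over 18 alternatives). Its groups did not overlap. It was the 1 called gene of the 7 tested colon epithelial markers, where 1.91% of all tested genes were called. Of the other 6, KRT8 (0.32), KRT19 (0.11) and KRT18 (0.05) had values above 0 and EPCAM (-0.34), CDX2 (-0.11) and CDH1 (-1.23) below. The value of CDH1 (SE 0.37, edgeR adjusted p = 0.119) rested on only 31, 23 and 14 counts in MUT, against 54, 35 and 37 counts in WT.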
